A study of Homo sapiens with 6 samples.

Results

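The RAB genes encode small GTPases that direct membrane traffic, and their mRNA was measured by RNA-seq in TE1, a cell line derived from a human esophageal squamous cell carcinoma (ESCC). Members were taken by gene name, as RAB followed by a number and, where present, a letter from A to D. The gene table held 49 such genes of 12180 listed, and the transcript table held 117 of their transcripts of 33090 listed. The series has 3 libraries of control TE1 cells, whose labels give the genotype as WT, and 3 libraries of TE1 cells with FGL1 overexpression (FGL1-OE). FGL1 encodes a secreted liver protein that is also a ligand of the immune checkpoint receptor LAG-3. According to the study's methods, the control cells carried random nonsense sequences (NC, the name used here), and lentivirus was used to infect the cells. Puromycin selection is described for the lines with modified FGL1 expression and is not stated for the control cells. The labels do not say whether the 3 libraries of a group came from separate cultures, so a p-value measures only the spread between these libraries, which may be technical.

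The values were FPKM, fragment counts scaled by the authors for transcript length and sequencing depth. FGL1 itself measured 0.0202, 0 and 0.106 FPKM across NC 1, 2 and 3, against 33.5, 39.3 and 39.9 FPKM in FGL1-OE 1, 2 and 3, so the labels held for the targeted gene. The tables listed 8 of 11 markers of squamous epithelium, without KRT14, SOX2 and PKP1, and their summed level was 483 to 778 FPKM in the NC libraries and 686 to 776 FPKM in FGL1-OE. Among them KRT6A was at 108 to 160 FPKM in NC and 183 to 197 FPKM in FGL1-OE and CDH1 at 32.2 to 52.5 and 61.7 to 62.0 FPKM, and the part of either in the RAB values was not tested. The groups overlapped for the other listed markers, KRT5, KRT17, DSG3, SFN, EPCAM and TP63. SFN was the highest marker, at 198 to 459 FPKM in NC and 305 to 378 FPKM in FGL1-OE, and TP63 was at 0.299 to 0.779 FPKM over all libraries. Of the markers of other cells, 2 of 5 for leukocytes were listed, summing to 3.11 to 6.06 FPKM in the NC libraries and 3.62 to 5.67 FPKM in FGL1-OE, and 2 of 5 for fibroblasts were listed, at 2.20 to 8.11 and 3.21 to 5.94 FPKM. None of the 3 endothelial markers was listed, nor was PTPRC, which marks all leukocytes. Across genes, log2(FPKM + 1) correlated at 0.888 between NC 1 and NC 2 and at 0.982 or more between FGL1-OE libraries. The depth of the libraries is unknown, because the low values showed no steps of whole reads. In bulk RNA, fewer cells with a transcript and less of it per cell cannot be told apart.

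A RAB protein is a molecular switch. Guanine nucleotide exchange factors (GEFs) load it with GTP on a target membrane, where it recruits effectors such as tethers and motors, and GTPase-activating proteins (GAPs) return it to the GDP form. A geranylgeranyl lipid, added by RAB geranylgeranyl transferase with the help of an escort protein, holds the switch in the membrane, and GDP dissociation inhibitors (GDIs) take the inactive form back to the cytosol. Each organelle carries its own set, for example RAB1 between the endoplasmic reticulum (ER) and the Golgi, RAB5 on early endosomes, RAB7 on late endosomes and RAB11 on recycling endosomes, and epithelial cells add RAB17 and RAB25.

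RAB proteins bind the phosphates of the nucleotide with a P-loop, typically a glycine followed by any 4 residues, a glycine, a lysine and a serine or threonine. The codons of this loop are shown for 4 subfamilies because close paralogs spell nearly the same protein in different bases, a property that the measured levels are set against further on. Each run has 24 bases for 8 codons, read 5′ to 3′ from the coding sequence of the transcript in GENCODE v29 (GRCh38), and the capitals mark the last base of each codon, which can often change without changing the protein.
RAB1A: ggCgaCtcAggGgtTggAaaGtcT
RAB1B: ggCgaCtcAggCgtGggCaaGtcA
RAB5A: ggAgaGtcCgcTgtTggCaaAtcA
RAB5B: ggAgaAtcTgcAgtGggAaaGtcA
RAB5C: ggGgaGtcTgcGgtAggCaaAtcC
RAB8A: ggGgaCtcGggGgtGggGaaGacC
RAB8B: ggCgaCtcGggGgtAggCaaGacC
RAB11A: ggAgaTtcTggTgtTggAaaGagT
RAB11B: ggGgaCtcAggCgtGggCaaGagC
In RAB1B, 6 of the 8 last bases were G or C, against 4 of 8 in RAB1A. The contrast was wider over the whole coding sequence, where G or C stood at 76.1% of last codon positions in RAB1B and 41.5% in RAB1A. RAB11B had 88.1% and RAB11A 35.6%. RAB5A had 30.2%, RAB5B 57.7% and RAB5C 65.7%. RAB8A had 70.05%. RAB8B had 48.9%, read from RAB8B-204, a transcript of 584 bases that may not hold the whole coding sequence. RAB1A lies at chr2:65297835-65357240 on the minus strand and RAB1B at chr11:66036004-66044963 on the plus strand of GRCh37, the build of the deposited tables. The pattern was read in 46 of the 49 members.

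The levels of the 49 genes spanned from 0.506 to 196 FPKM over all libraries. RAB1B, which acts between ER and Golgi, had the highest mean, with 196, 116 and 148 FPKM across NC 1, 2 and 3, and 143, 116 and 132 FPKM in FGL1-OE 1, 2 and 3. Its lowest library lay above the highest library of every other RAB gene. RAB13, which serves delivery to the cell surface and tight junctions, was at 95.1, 55.7 and 44.3 FPKM in the NC libraries and 57.4, 38.6 and 65.5 FPKM in FGL1-OE. Both genes had their highest value in NC 1.

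RAB10, a GTPase of exocytosis, was at 54.8, 65.2 and 50.0 FPKM in the NC libraries and 51.7, 53.8 and 56.8 FPKM in FGL1-OE. RAB7A, the switch of late endosomes and lysosomes, was at 47.0, 54.9 and 55.0 FPKM in the NC libraries and 50.7, 50.7 and 53.6 FPKM in FGL1-OE. The 6 libraries of RAB7A lay close together and the groups overlapped. RAB25, an epithelial relative of RAB11, was at 56.8, 35.0 and 44.8 FPKM in the NC libraries and 47.9, 46.1 and 44.9 FPKM in FGL1-OE. The 3 NC libraries of RAB25 spread around a narrow cluster of FGL1-OE libraries. From RAB13 downward each gene's range overlapped that of its neighbour in the order, so the order of means does not separate neighbours beyond their spread. A mean of at least 10 FPKM was reached by 21 members, and 9 members had a mean under 2 FPKM, among them RAB3A, RAB40B and RAB19. The RAB genes together took 0.348% to 0.390% of the summed FPKM of a library.

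**Figure D1:**
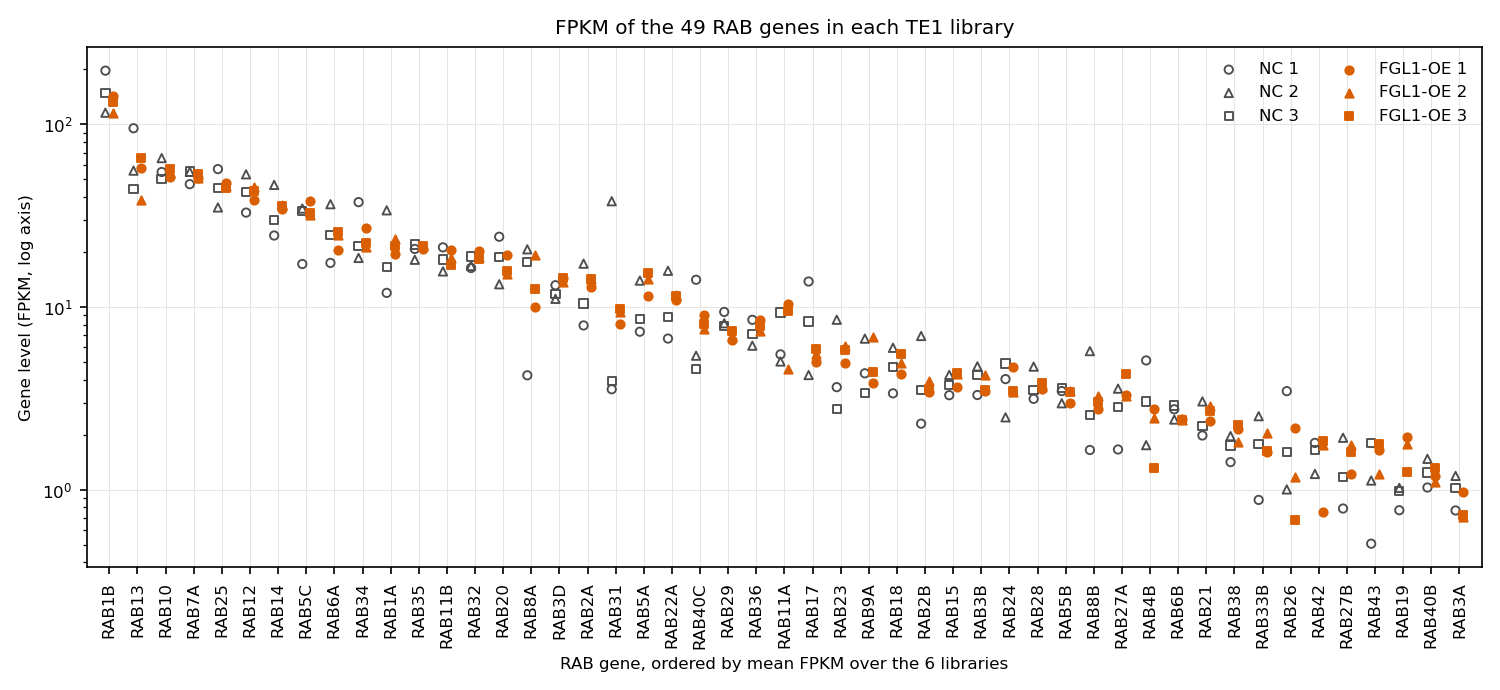
FPKM (log axis) of the 49 RAB genes in each of the 6 TE1 libraries, ordered by mean. Open grey symbols are NC and filled orange symbols are FGL1-OE, with circles, triangles and squares for libraries 1, 2 and 3. RAB1B stands above the rest, and the NC symbols of most genes spread more widely than the FGL1-OE symbols.

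No RAB gene passed the test between FGL1-OE and NC after adjustment over all genes (limma with Benjamini-Hochberg adjustment, lowest adjusted p of 1.00), where 0.00832% of the 12017 genes tested did. That share was 1 gene, the overexpressed FGL1 itself. At an unadjusted p under 0.05 in limma, 1 of 49 RAB genes was called, beside 2.01% of all genes tested. The groups did not overlap for 3 RAB genes, beside 7.15% of all genes tested. All 49 members passed the filter of a mean of 0.5 FPKM. The median log2 fold change of the 49 members, on the scale of log2(FPKM + 1), was 0.06, with 30 of 49 above 0, and the median over all genes tested was 0.02. This scale understates the change of genes with low values.

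The 95% interval of the log2 fold change lay within 1 to either side of 0 for 41 of the 49 genes. An end of the interval lay beyond 1 for the other genes, which were RAB31, RAB8A, RAB17, RAB4B, RAB26, RAB5A, RAB23 and RAB40C. RAB31 had the widest, from -1.67 to 1.82. At low levels a difference of 1 on this scale is more than a doubling of FPKM, so the intervals of genes such as RAB19 and RAB43 cover wider ratios of FPKM than their ends show. The median distance from the estimate to the end of its interval was 0.52 on the log2 scale.

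RAB19 was the called gene, and its values were 0.772, 1.02 and 0.986 FPKM across NC 1, 2 and 3, and 1.95, 1.79 and 1.24 FPKM in FGL1-OE 1, 2 and 3. All FGL1-OE libraries exceeded all NC libraries, at levels among the lowest of the family. The log2 fold change was 0.46 with a standard error of 0.16 (limma, unadjusted p = 0.0248). The exact two-sided permutation test gave p = 0.1, the smallest that 3 libraries against 3 allow. RAB19 (chr7:140103843-140126050 on GRCh37) was no longer called at this unadjusted threshold when NC 3, FGL1-OE 1 or FGL1-OE 2 was left out.

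Among early endosome genes the estimate was largest for RAB5A, which drives fusion of early endosomes. RAB5A was at 7.32, 13.9 and 8.58 FPKM in the NC libraries and 11.5, 14.2 and 15.4 FPKM in FGL1-OE. NC 2 lay inside the range of the FGL1-OE libraries and the other NC libraries below it. The log2 fold change was 0.46 with a 95% interval from -0.10 to 1.03 (exact two-sided permutation test, p = 0.2). It was 0.29 without NC 1 and 0.71 without NC 2. Its paralog RAB5C was at 17.2, 34.6 and 33.4 FPKM in the NC libraries and 37.98, 31.9 and 32.5 FPKM in FGL1-OE. NC 1 was the low library of RAB5C, and the log2 fold change was 0.32 with a 95% interval from -0.31 to 0.95. It was 0.002 when NC 1 was left out.

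RAB17, which acts in recycling and transcytosis of polarized epithelial cells, had the lowest estimate of the family. It was at 13.8, 4.24 and 8.34 FPKM in the NC libraries and 4.99, 5.50 and 5.88 FPKM in FGL1-OE, so that NC 2 lay below all FGL1-OE libraries and the other NC libraries above them. The log2 fold change was -0.48 with a 95% interval from -1.28 to 0.32 (exact two-sided permutation test, p = 0.4). Its value was -0.12 without NC 1 and -0.87 without NC 2. RAB4B, a GTPase of fast recycling, was at 5.10, 1.75 and 3.04 FPKM in the NC libraries and 2.75, 2.46 and 1.32 FPKM in FGL1-OE. RAB4B had the same order of NC libraries as RAB17, and its log2 fold change was -0.39 with a 95% interval from -1.12 to 0.34. The value of RAB4B was -0.099 without NC 1, -0.67 without NC 2 and -0.18 without FGL1-OE 3. Over the 14 members assigned to early endosomes and recycling, the median log2 fold change was 0.09, 11 were above 0 and none was called.

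Among the 10 members of exocytosis and surface delivery, the median log2 fold change was -0.02, 5 were above 0 and none was called. RAB27A, which docks secretory lysosomes and exosome carriers, was at 1.66, 3.57 and 2.84 FPKM in the NC libraries and 3.30, 3.24 and 4.27 FPKM in FGL1-OE. NC 2 lay above FGL1-OE 1 and 2, and the log2 fold change was 0.35 with a 95% interval from -0.18 to 0.87. It was 0.13 without NC 1 and 0.52 without NC 2. RAB3D, a GTPase of secretory granules named after its values were seen, was at 13.2, 11.1 and 11.7 FPKM in the NC libraries and 14.5, 13.7 and 14.5 FPKM in FGL1-OE. The groups of RAB3D did not overlap (log2 fold change 0.23, 95% interval from -0.10 to 0.56, exact two-sided permutation test, p = 0.1). RAB26, a GTPase of secretory granules, was at 3.46, 1.00 and 1.60 FPKM in the NC libraries and 2.17, 1.17 and 0.682 FPKM in FGL1-OE. Its groups overlapped, with a log2 fold change of -0.34 and a 95% interval from -1.13 to 0.46. The value of RAB26 was -0.014 without NC 1, -0.59 without NC 2 and -0.12 without FGL1-OE 3. RAB13 had a log2 fold change of -0.23 with a 95% interval from -0.96 to 0.50.

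Among the 9 members of late endosomes, lysosomes and related organelles, the median log2 fold change was 0.04, 5 were above 0 and none was called. RAB29, which recruits the kinase LRRK2 to membranes, was at 9.39, 8.14 and 7.86 FPKM in the NC libraries and 6.60, 6.81 and 7.37 FPKM in FGL1-OE. For RAB29 all FGL1-OE libraries were below all NC libraries (log2 fold change -0.25, 95% interval from -0.59 to 0.08, exact two-sided permutation test, p = 0.1). The 9 members of ER and Golgi had a median of 0.06, with 5 above 0 and none called. RAB43, a GTPase of ER to Golgi traffic, was at 0.506, 1.12 and 1.80 FPKM in the NC libraries and 1.64, 1.22 and 1.78 FPKM in FGL1-OE, the log2 fold change being 0.29 with a 95% interval from -0.27 to 0.85. It was 0.056 without NC 1, 0.50 without NC 3 and 0.069 from sums of transcripts. The 7 members with other or less settled roles had a median of 0.001, and RAB19 was the 1 called.

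**Figure D2:**
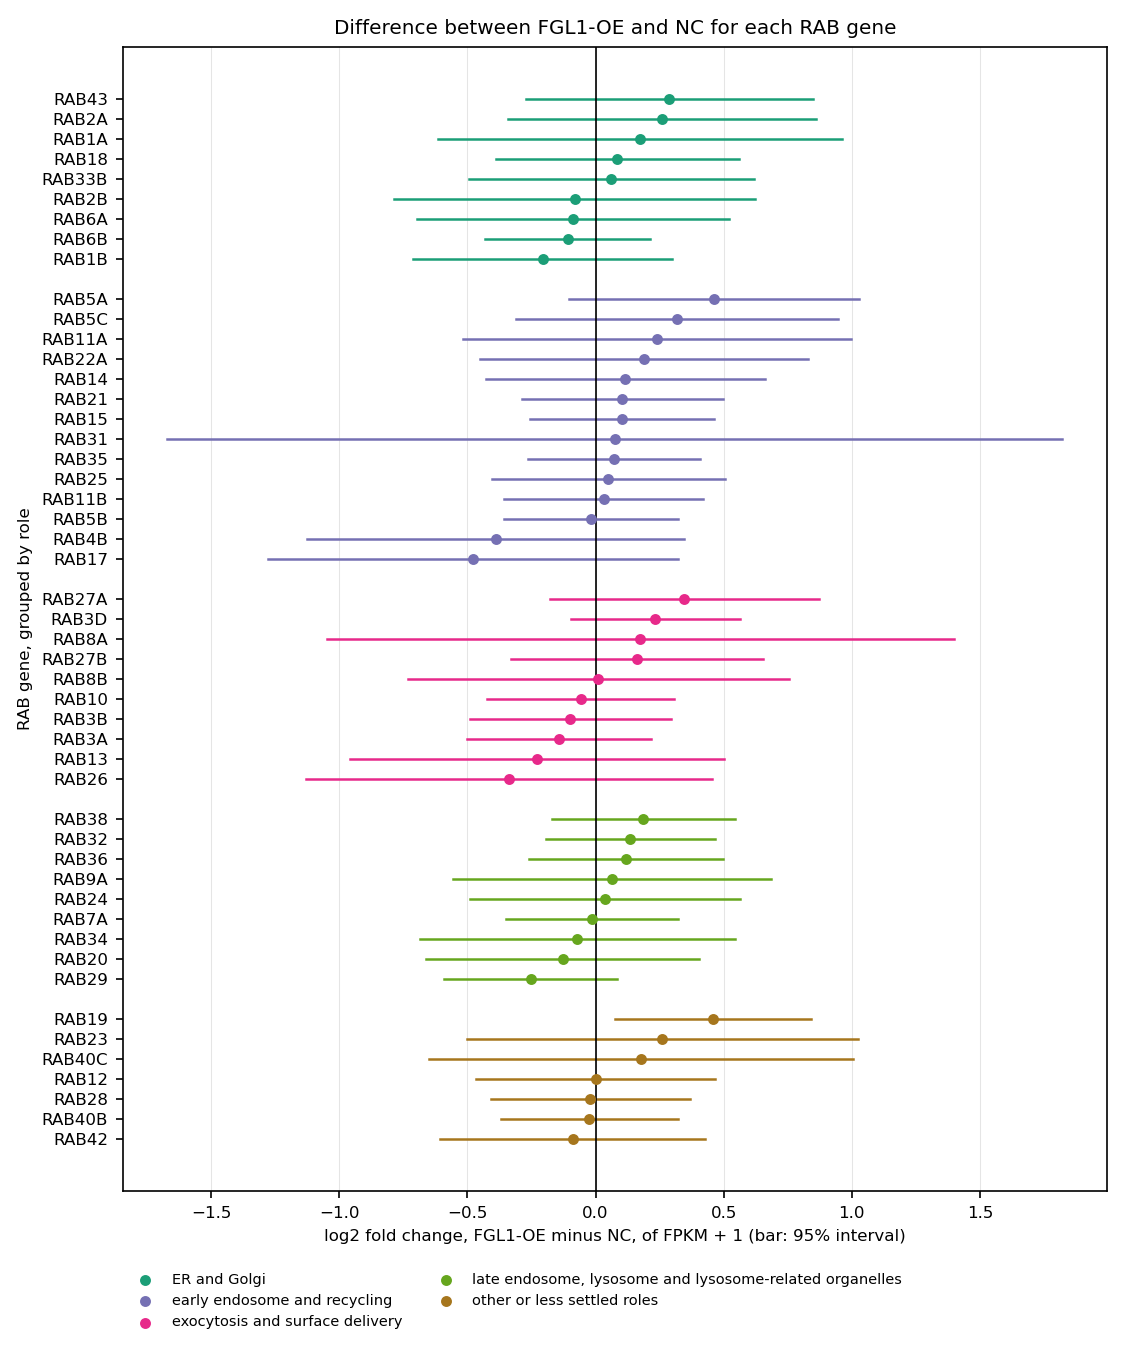
log2 fold change between FGL1-OE and NC for each RAB gene (point) with its 95% interval from limma (bar), grouped and coloured by role. The interval of RAB19, from 0.08 to 0.84, is the only 1 that leaves out 0, and that of RAB31, from -1.67 to 1.82, is the widest.

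The spread within the groups was unequal. The SD of log2(FPKM + 1) was larger in NC than in FGL1-OE for 46 of 49 RAB genes, and for 83.9% of all genes listed, without the filter. Its median over the RAB genes was 0.39 in NC and 0.12 in FGL1-OE, and over all genes 0.31 and 0.12. For 31 of the 49 genes the whole FGL1-OE range lay inside the NC range. Shares over all genes are not given for this count or for those in the next sentence, so nothing is read from them. Within NC, NC 1 was the lowest and NC 2 the highest library for 24 RAB genes, and the reverse held for 11.

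RAB31, which acts between the trans-Golgi network and endosomes, had the largest difference of this kind and was named after its values were seen. It was at 3.55, 37.9 and 3.93 FPKM in the NC libraries and 8.08, 9.42 and 9.78 FPKM in FGL1-OE. NC 2 stood above every other library and the other NC libraries stood below every FGL1-OE library. The log2 fold change was 0.08 with all libraries and 1.09 when NC 2 was left out (limma with Benjamini-Hochberg adjustment, adjusted p = 0.0791). It was -0.46 without NC 1 and -0.40 without NC 3. RAB8A, a GTPase of surface delivery and of the primary cilium, was at 4.23, 20.7 and 17.6 FPKM in the NC libraries and 10.03, 19.3 and 12.5 FPKM in FGL1-OE. Here NC 1 was the library that stood apart, below the other 5.

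Without NC 2, 12 of 49 RAB genes had an unadjusted p under 0.05 in limma, 10 higher and 2 lower in FGL1-OE, beside 21.8% of all genes tested, made up of 11.2% higher and 10.6% lower. None passed adjustment, and the lowest adjusted p was that of RAB31. The 2 lower genes were RAB17 and RAB4B. The 10 higher genes were RAB31, RAB5A, RAB23, RAB2A, RAB22A, RAB1A, RAB19, RAB14, RAB27A and RAB8B, with log2 fold changes from 0.37 to 1.09. Their most abundant transcripts had a GC content from 38.1% to 43.9%, except that of RAB19 at 53.7%. RAB17 and RAB4B were at 57.7% and 56.5%, and the part of GC content in this split was not tested. The median log2 fold change without NC 2 was 0.12 over the RAB genes and 0.04 over all genes tested.

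The difference between NC 2 and NC 1 went with the GC content of the most abundant transcript. Across the 49 RAB genes Pearson's r was -0.64 and Spearman's rho -0.70, and across 11895 genes they were -0.76 and -0.79. These are descriptions across genes that share the same pair of libraries, so the genes are not independent replicates. The 24 members with a GC content from 35.9% to 46.5% had a median log2 difference of 0.75, and 21 of them were higher in NC 2. The 25 members with a GC content from 48.1% to 64.1% had a median of -0.34, and 9 of them were higher in NC 2. RAB1A, with 38.3% GC in its transcript, was higher in NC 2 by 1.43 on the log2 scale. RAB1B, with 61.1%, differed by -0.76.

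RAB40C, a subunit of ubiquitin ligases, had the highest GC content at 64.1% and a difference of -1.23. RAB31 and RAB8A, at 43.9% and 54.1% GC, differed by 3.10 and 2.05 and lay above the other members. The paralogs whose loop codons are printed above did not all follow the gradient. RAB5C, at 56.3% GC, differed by 0.97, and RAB5B, at 46.3%, by -0.17. Within FGL1-OE, differences from library 1 also went with GC content. Across the 49 genes rho was -0.64 for library 2 minus library 1 and -0.57 for library 3 minus library 1. Across 11895 genes these were -0.54 and -0.44. Between the group means, FGL1-OE minus NC, r with GC content was -0.29 and rho -0.30 across the 49 genes. The values across 11895 genes were -0.29 and -0.33. With the trend on GC content and length removed from each library, 3 of 49 RAB genes had an unadjusted p under 0.05 in limma, RAB19, RAB5A and RAB3D, beside 5.96% of all genes tested. The part of library composition in the differences between groups was not tested.

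**Figure D3:**
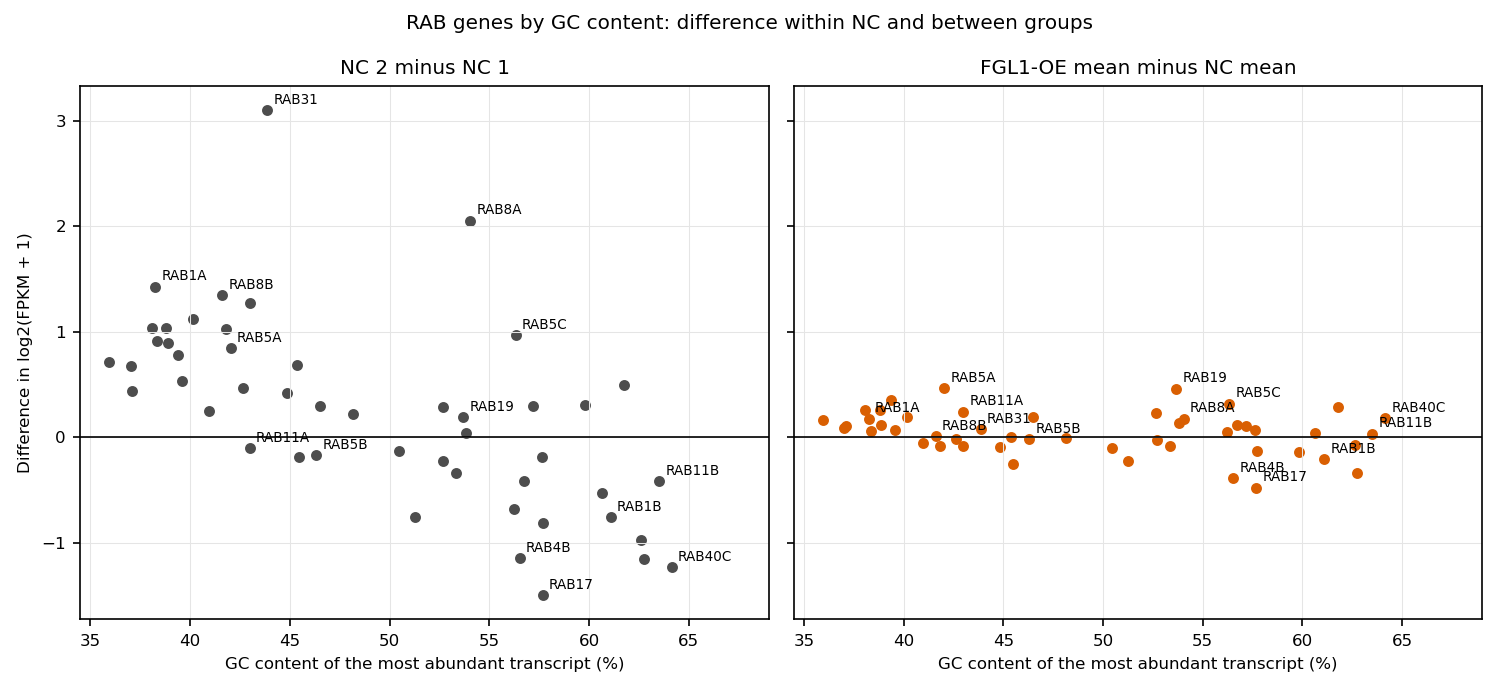
Difference in log2(FPKM + 1) of each RAB gene against the GC content (%) of its most abundant transcript, for NC 2 minus NC 1 (left) and for the FGL1-OE mean minus the NC mean (right), on the same vertical scale. Each point is 1 of the 49 genes and some are named. The left panel falls from mostly above 0 at low GC content to mostly below 0 at high GC content, with RAB31 at 3.10 and RAB8A at 2.05 above the rest, and the right panel stays within 0.48 of 0.

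FPKM is scaled for length, so the paralogs of a subfamily, those with the same number, could be set against each other within a library. There were 20 paralogs in 9 subfamilies, and the shares did not overlap between the groups in 1 subfamily, a pair whose 2 shares add up to the whole. This was 2 of 20 shares, beside 8.52% of the shares of all genes that carry the same stem and number with a last letter from A to D. The pair was RAB2A, which acts between Golgi and ER, and RAB2B. RAB2A took 77.5%, 71.3% and 74.9% of the summed FPKM of the pair in NC 1, 2 and 3 and 79.0%, 78.2% and 80.1% in FGL1-OE 1, 2 and 3. The mean was 74.6% ± 3.10 (SD, n = 3) in NC and 79.1% ± 0.964 (SD, n = 3) in FGL1-OE, with an exact permutation p of 0.1, the smallest possible.

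RAB1B held 94.3%, 77.4% and 89.96% of the RAB1 pair in NC and 88.0%, 83.1% and 86.0% in FGL1-OE. In NC 2, where this share was low, RAB1A had its highest and RAB1B its lowest value among the NC libraries. RAB11B held 66.03% to 79.4% of its pair in NC and 64.1% to 80.2% in FGL1-OE. RAB5C held 61.4% to 73.3% of the RAB5 trio in NC and 63.3% to 72.5% in FGL1-OE, with RAB5A at 18.8% to 30.03% over all libraries and RAB5B at 5.65% to 12.4%.

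RAB3D held 65.2% to 76.4% of the RAB3 trio in NC and 73.6% to 77.3% in FGL1-OE. RAB3A, best known at nerve terminals, held 3.79% to 5.12% in FGL1-OE and 4.47% or more in NC. RAB6A held 86.3% or more of its pair in every library, and RAB6B, its relative known from neurons, held the rest. RAB8A held 71.9% to 87.4% of its pair, RAB27A 64.8% to 73.1% and RAB40C 78.6% to 93.2% over all libraries. In these subfamilies the groups overlapped.

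Of the 117 RAB transcripts, 105 passed the filter and 12 did not. None passed the test after adjustment (limma with Benjamini-Hochberg adjustment, lowest adjusted p of 1.00), where 0.0165% of all transcripts tested did. At an unadjusted p under 0.05 in limma 1 of 105 was called, beside 3.53% of all transcripts tested. The groups did not overlap for 15 of 105, with 8 higher and 7 lower in FGL1-OE, beside 8.22% of all transcripts tested (4.65% higher and 3.57% lower). Of these 15, 5 had a mean under 0.5 FPKM in 1 group and passed the filter only through the group where they were high, so nothing is read from their count. A transcript that missed the test is not shown to be unchanged. The median log2 fold change was 0.05 over the RAB transcripts and 0.02 over all transcripts tested.

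The called transcript was RAB34-207 (ENST00000419712), at 1.60, 0.796 and 0.681 FPKM across NC 1, 2 and 3, and listed with 0, 0.505 and 0 FPKM in FGL1-OE 1, 2 and 3. RAB34 is a GTPase of Golgi and lysosome positioning and of the primary cilium. This transcript took 2.69% or less of its gene's summed transcript FPKM in every library. It passed the filter only through the NC libraries, so its difference, a log2 fold change of -0.79 with a standard error of 0.30, is given as a description. RAB34 had 13 listed transcripts, more than any other member, and its gene level was at 18.5 to 37.5 FPKM in the NC libraries and 21.2 to 27.1 FPKM in FGL1-OE.

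For the 28 RAB genes with 2 or more listed transcripts, the share of each of their 96 transcripts in the gene's summed transcript FPKM was compared. The shares did not overlap between the groups for 12 of the 96, in 9 genes, beside 9.31% of all transcripts of such genes. No filter on low values was applied to either count. Of the 12, 2 had not passed the filter of a mean of 0.5 FPKM and 6 had a mean under it in 1 group. The 12 belonged to RAB1A, RAB5A, RAB5B, RAB5C, RAB17, RAB34, RAB35, RAB36 and RAB40C. Transcripts of 1 gene share most of their sequence, and a median of 3.25% of the 31-base words of these 96 transcripts were not shared with any further GENCODE transcript of that gene. The values of single transcripts are therefore estimates that the shared reads do not fix. The gene value lay within 1% of the sum of the listed transcripts in every library for 3 RAB genes, RAB20, RAB32 and RAB3B, and the sum was above it by more than 1% in every library for 34. The median ratio of the sum to the gene value was 1.21.

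Of the 12, the widest differences in mean share were those of RAB35, which controls fast recycling from endosomes. RAB35-201 (ENST00000229340) has an internal coding exon of 125 bases, exon 5, that RAB35-202 (ENST00000534951) lacks, and 125 is not a whole number of codons. The exon lies at chr12:120098811-120098935 on the minus strand of GRCh38 and is shown because only RAB35-201 has it. The 2 transcripts, of 2945 and 939 bases, also differ elsewhere, so their shares do not measure the use of exon 5 alone.
RAB35-201 exon 5: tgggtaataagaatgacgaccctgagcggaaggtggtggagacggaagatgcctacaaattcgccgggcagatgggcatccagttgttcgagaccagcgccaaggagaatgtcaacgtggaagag
RAB35-201 was at 18.6, 23.8 and 25.5 FPKM in the NC libraries and 27.0, 28.3 and 28.4 FPKM in FGL1-OE. RAB35-202 was at 16.9, 1.76 and 5.70 FPKM in the NC libraries and 1.42, 1.11 and 1.71 FPKM in FGL1-OE. The share of RAB35-201 was 52.3%, 93.1% and 81.7% in NC and 95.02%, 96.2% and 94.3% in FGL1-OE. All FGL1-OE libraries exceeded all NC libraries, and NC 1 stood far below the others. The mean share was 75.7% ± 21.0 (SD, n = 3) in NC and 95.2% ± 0.959 (SD, n = 3) in FGL1-OE (exact two-sided permutation test, p = 0.1). RAB35-202 had a log2 fold change of -1.53, which was -0.84 when NC 1 was left out. The gene level of RAB35 ranged from 18.1 to 22.0 FPKM over all libraries.

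RAB5B-201, the longest RAB5B transcript, had the same library apart, with a share of 19.1%, 55.6% and 54.7% in NC and 63.8%, 60.3% and 56.2% in FGL1-OE. RAB17-208 took 23.4%, 33.9% and 20.1% of its gene in NC and 9.27%, 15.9% and 18.02% in FGL1-OE. RAB5C-208 took 3.91%, 1.79% and 4.55% in NC and 1.30%, 1.38% and 0.517% in FGL1-OE. RAB36-202, RAB5A-203 and RAB40C-205 were listed at 0 in all NC libraries. In FGL1-OE 1, 2 and 3 RAB36-202 was at 0.619, 0.513 and 0.760 FPKM. RAB36-202 and RAB5A-203 had not passed the filter and RAB40C-205 passed it only through FGL1-OE, so these 3 are given as listed, with no test. For the shares of RAB5B-201, RAB17-208 and RAB5C-208 the exact permutation p was 0.1.

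RAB6A, which acts in traffic at the Golgi, makes a pair of proteins, RAB6A and RAB6A′, from mutually exclusive exons. Its transcripts RAB6A-201 (ENST00000310653) and RAB6A-202 (ENST00000336083) use alternative copies of exon 4, each of 106 coding bases, at chr11:73718785-73718890 and chr11:73718613-73718718 on the minus strand of GRCh38. The copies are shown because these transcripts use different ones, and the capitals mark the 31 bases at which the copies differ, an identity of 70.8%. The transcripts, of 3389 and 3085 bases, also differ outside exon 4.
RAB6A-201 exon 4: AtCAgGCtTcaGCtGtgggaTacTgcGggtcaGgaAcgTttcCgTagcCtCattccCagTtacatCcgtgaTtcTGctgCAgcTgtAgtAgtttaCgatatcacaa
RAB6A-202 exon 4: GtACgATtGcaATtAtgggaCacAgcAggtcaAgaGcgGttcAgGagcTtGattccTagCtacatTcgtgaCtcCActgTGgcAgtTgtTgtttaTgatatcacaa
RAB6A-201 was at 5.55, 17.8 and 14.3 FPKM in the NC libraries and 13.5, 18.3 and 12.4 FPKM in FGL1-OE. RAB6A-202 was at 21.2, 37.7 and 22.7 FPKM in the NC libraries and 17.1, 18.03 and 26.4 FPKM in FGL1-OE. The share of RAB6A-201 was 20.8%, 31.9% and 36.8% in NC and 43.4%, 49.04% and 31.5% in FGL1-OE. FGL1-OE 3 lay within the range of the NC libraries, so the groups overlapped (exact two-sided permutation test, p = 0.3). Both forms were present in every library.

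For RAB7A, 1 library set the difference between the group means of its 2 main transcripts. In RAB7A-203 (ENST00000482525) exon 4 ends early and lacks the last 141 bases, or 47 codons, of exon 4 of RAB7A-201 (ENST00000265062), at chr3:128806450-128806590 on the plus strand of GRCh38. They are shown because they mark the longer form.
RAB7A-201 exon 4, last 141 bases: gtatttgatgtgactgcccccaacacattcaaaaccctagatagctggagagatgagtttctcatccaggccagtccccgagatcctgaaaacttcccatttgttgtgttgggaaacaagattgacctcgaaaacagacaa
RAB7A-203 took 63.6% and 51.0% of the gene's summed transcript FPKM in NC 1 and 2 and was listed at 0 in NC 3. It took 64.1%, 54.3% and 52.8% in FGL1-OE. Its FPKM was 45.7, 40.5 and 0 in NC and 50.2, 43.4 and 43.6 in FGL1-OE. RAB7A-201 was at 24.1, 37.2 and 63.3 FPKM in the NC libraries and 25.0, 28.95 and 32.5 FPKM in FGL1-OE, with NC 3 the highest. The log2 fold change of RAB7A-203 was 1.90 with all libraries and 0.08 without NC 3. The gene level of RAB7A in NC 3 was 55.0 FPKM, next to the 54.9 FPKM of NC 2.

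**Figure D4:**
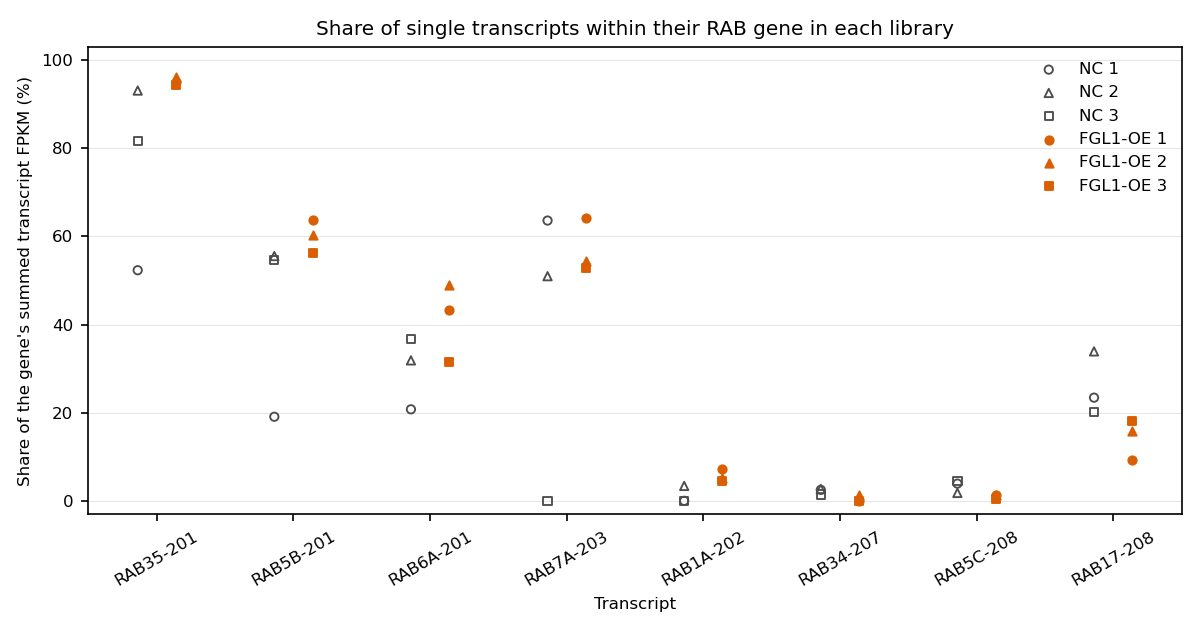
Share (%) of 8 transcripts in the summed transcript FPKM of their RAB gene in each library. Open grey symbols are NC and filled orange symbols are FGL1-OE, with circles, triangles and squares for libraries 1, 2 and 3. NC 1 lies far below the other libraries for RAB35-201 and RAB5B-201, and NC 3 lies at 0 for RAB7A-203.

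The genes that load, unload and carry RAB proteins were taken from lists. Of prenylation and membrane cycling, 7 genes are reported here, a list that is not complete, and none was called at an unadjusted p under 0.05 in limma. Their largest estimate was that of GDI2, a GDP dissociation inhibitor, at 21.1, 49.8 and 33.2 FPKM in the NC libraries and 39.1, 42.3 and 39.3 FPKM in FGL1-OE. The groups overlapped, with NC 2 the highest library, and the log2 fold change was 0.29 with a standard error of 0.29.

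Of 49 exchange factor genes 46 were listed, with 1 called lower and none higher. This was TRAPPC1, a subunit of the TRAPP complexes that act on RAB1 and RAB11, at 37.05, 39.8 and 38.8 FPKM in the NC libraries and 29.1, 25.3 and 21.4 FPKM in FGL1-OE. The groups did not overlap, and the log2 fold change was -0.60 with a standard error of 0.16 (limma, unadjusted p = 0.00628). Its adjusted p from limma was 1.00. None of 36 tested genes for GTPase-activating proteins and none of 46 tested effector genes was called, with median log2 fold changes of -0.02 and -0.01.

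The ARF family, small GTPases that recruit vesicle coats and lipid-modifying enzymes, was counted for comparison. None of its 23 genes was called, with a median log2 fold change of 0.06. The share called in each list is read beside the 2.01% of all genes tested.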

How the data were processed

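TE1 cells were profiled in 6 libraries, 3 NC and 3 FGL1-OE, from poly(A) RNA captured on oligo(dT) beads, with a stranded library kit. Per gene and per transcript, the values deposited by the authors are FPKM. The submitters' processing notes name StringTie and GRCh37, and the aligner is not given in the sources used here. The deposited columns of the authors' own comparison (fold changes and p-values) were not used. Samples were grouped by genotype.

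A filter on the mean over libraries (0.5 FPKM) kept 12017 genes and 30330 transcripts. Group differences in log2(FPKM + 1), that is with a pseudocount of 1, were fitted without covariates by limma 3.58.1 (R 4.3.3). Benjamini-Hochberg adjustment ran over all features of a table, at a threshold of 0.05. An exact two-sided permutation test was added for single values. GC content and sequences were read from GENCODE v29 with Python 3.11.15, for 97.7% of the genes.

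The members and lists were chosen with earlier results of these data known. Named genes were the 5 members with the highest mean, those at an unadjusted p under 0.05, the 5 largest rises and the 5 largest falls, transcripts at an unadjusted p under 0.05 that also had an absolute log2 fold change over 1 and no overlap, subfamilies by their shares, and called genes of each list. No transcript met its criteria. Some genes of the lists are not reported here and were left out of their counts. Isoforms and other genes were named after their values were seen.

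The fit was tested on simulated data with each feature's spread pooled over NC and FGL1-OE. The unequal spread of the groups and the trend with GC content were not reproduced. After adjustment it recovered 37.5% of genes given a log2 difference of 1, the smallest set. It recovered no transcript given a log2 difference of 1 or 2, and 75.5% of those given 4, the largest. A count of 0 therefore says little on gene differences near 1 or on transcript differences up to 2 on the log2 scale. Alternatives were leaving out each library, a replicate block, a pseudocount of 0.1, a filter at 1 FPKM or none, quantile normalization, scaling to TPM, an ordinary linear model, sums of transcripts and, added after seeing the data, removal of the GC and length trend.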

Additional observations from a re-analysis of the deposited data

How the results depend on the processing

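No alternative gave a RAB gene or transcript under an adjusted p of 0.05. Depth is unknown, and 3 libraries a group limit the precision of every value. The counts at an unadjusted p under 0.05 moved most when NC 2 was left out. For RAB genes they lay between 0 and 12 when 1 library was left out, and were 3 with an ordinary linear model and again 3 once the trend on GC and length was taken out. The 12 came without NC 2, beside 21.8% of all genes tested, and with the trend removed the share of all genes was 5.96%. RAB genes without overlap of the groups numbered 3 to 20 when 1 library was left out, where fewer libraries make this easier, and 9 with the trend removed (13.7% of all genes tested). The share of all genes without overlap is not given for a library left out, so nothing is read from the 3 to 20. The median log2 fold change of the RAB genes ranged from -0.002 without NC 1 to 0.12 without NC 2.

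For RAB transcripts the count at an unadjusted p under 0.05 was 3 with a pseudocount of 0.1, 3 with no filter, 0 with a mean of at least 1 FPKM, 4 with an ordinary linear model, 2 after scaling all libraries to the same sum (TPM), 5 with the trend removed and 0 to 8 when 1 library was left out. Shares of transcripts without overlap numbered 17 to 27, and of paralogs 2 to 7, when 1 library was left out. For these alternatives the counts over all transcripts and paralogs are not given, so nothing is read from the RAB counts.

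For the lists, leaving out 1 library gave 0 to 2 genes of prenylation and membrane cycling, 1 to 10 exchange factors, 0 to 7 GTPase-activating proteins, 0 to 9 effectors and 0 to 7 ARF genes. Each highest count came without NC 2, where 21.8% of all genes tested were called. With the trend removed there were 4 exchange factors, 2 GTPase-activating proteins and 1 ARF gene, beside 5.96% of all genes tested.

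Leaving out 1 library turned the sign of some log2 fold changes. They ranged from -0.46 to 0.079 for RAB13 (positive without NC 1), from -0.14 to 0.047 for RAB10 (positive without NC 2), from -0.087 to 0.024 for RAB7A (positive without NC 2, NC 3 or FGL1-OE 1), from -0.12 to 0.22 for RAB25 (negative without NC 2), from -0.46 to 1.09 for RAB31 (negative without NC 1 or NC 3), from -0.095 to 0.62 for RAB40C (negative without NC 3), from -0.14 to 0.58 for RAB1A (negative without NC 1) and from -0.13 to 0.63 for RAB6A-201 (negative without NC 1). From sums of transcripts RAB7A was at 0.073. Beyond the libraries left out, the cause was not tested.

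Same-numbered libraries of the groups had correlations of their deviations from the group means of 0.34, 0.28 and -0.06, so the numbers were not taken as pairs. With the replicate number as a block, 0 RAB genes passed adjustment, 1 gene and 1 transcript had an unadjusted p under 0.05, and the median log2 fold change was 0.06.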
